A study of Homo sapiens with 6 samples.

Results

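STEAP4, a metalloreductase gene that had at most 7 counts in any solvent-treated C4-2 library, rose 139-fold under a supraphysiological androgen level (SAL), and STEAP1 and STEAP2, which lie on the same chromosome, rose by 1.43-fold and 1.52-fold. TFRC, the gene of the transferrin receptor, fell to 0.754 of its DMSO level. The genes described here are 10 of 55765 gene symbols counted, chosen by name: the STEAP reductases STEAP1, STEAP2, STEAP3 and STEAP4, the iron importers TFRC and SLC11A2, the ferritin chains FTH1 and FTL, the iron exporter SLC40A1 and the regulator IREB2. All 10 passed the filter on low counts, STEAP4 only through its SAL libraries.

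C4-2 is a castration-resistant prostate cancer (CRPC) line derived from LNCaP. RNA was sequenced from 3 cultures given the solvent DMSO and 3 given 1 nM of the synthetic androgen R1881 (methyltrienolone, here SAL), each for 72 h in DMEM with serum, and cultures carry the replicate numbers 1 to 3 in both groups. All libraries come from this single line, so a response in other prostate cells was not measured. Values are raw read counts per gene and CPM (counts per unit of library size, corrected by TMM), always in the order of replicates 1, 2 and 3. Changes were tested over 16835 genes with edgeR's quasi-likelihood test, with the replicate number as a block, and a gene was called at a Benjamini-Hochberg adjusted p under 0.05. Log2 fold changes, SAL over DMSO, are written log2FC, with the standard error SE. A pair is the SAL and the DMSO library of one replicate number.

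STEAP proteins were named as epithelial antigens of the prostate that span the membrane repeatedly. STEAP2, STEAP3 and STEAP4 carry electrons from cytosolic NADPH across endosomal or plasma membranes and reduce ferric iron and cupric copper there, whereas STEAP1 has the heme-binding membrane part but lacks the NADPH-binding domain. Cells take up transferrin-bound ferric iron through the transferrin receptor, a reductase converts it to ferrous iron in the endosome, and SLC11A2 (the divalent metal transporter) moves it to the cytosol. There it is stored in ferritin, built of the FTH1 heavy and FTL light chains, or leaves the cell through ferroportin, the product of SLC40A1. Iron regulatory proteins, one of them encoded by IREB2, bind iron-responsive elements (IREs) in messenger RNAs when iron is scarce. They block translation from an element in the 5′ UTR and stabilise the transcript from elements in the 3′ UTR.

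The IREs themselves are shown because iron regulatory proteins act on them. The genes were chosen by name for iron handling, so finding IREs among them is not independent of that choice. The canonical transcript of each gene was searched on its own strand for an unpaired C, 5 stem bases, the loop CAGTGN with a last base other than G, and 5 bases that pair with the stem, G-U pairs included. Among 19528 protein-coding transcripts, 10 held this motif in the 5′ UTR (0.0512%) and 97 in the 3′ UTR (0.497%). FTH1, FTL and SLC40A1 were among the 10 with a 5′ motif, and TFRC held 4 in its 3′ UTR. No other gene of the 10 had a match in its canonical transcript, and none of the STEAP genes did. Other transcripts of a gene and elements with a different stem or loop were not searched, so no match does not mean no element. The sequences are those of the GRCh37 transcripts, 30 bases each with the loop in capitals, at chr11:61735045-61735074 (minus strand) for FTH1, chr19:49468592-49468621 (plus strand) for FTL, chr2:190445386-190445415 (minus strand) for SLC40A1, and chr3:195777849-195777878, chr3:195777445-195777474, chr3:195777380-195777409 and chr3:195777333-195777362 (minus strand) for TFRC in the order of the transcript.
FTH1: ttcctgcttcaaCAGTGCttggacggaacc
FTL: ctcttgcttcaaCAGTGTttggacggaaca
SLC40A1: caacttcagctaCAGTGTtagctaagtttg
TFRC IRE 1: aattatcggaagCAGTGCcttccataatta
TFRC IRE 2: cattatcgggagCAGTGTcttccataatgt
TFRC IRE 3: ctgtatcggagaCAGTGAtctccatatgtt
TFRC IRE 4: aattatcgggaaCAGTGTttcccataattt

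Between 6931042 and 9776990 counts per library remained once rRNA genes had been left out. KLK3, the androgen-induced gene of prostate-specific antigen, had 4580 to 8779 counts in the DMSO libraries and 11449 to 23122 in the SAL libraries. The luminal markers HOXB13 and FOLH1 were present in every library. Of 20 markers of basal, stromal, immune, endothelial and erythroid cells, 7 were at 0 throughout, among them KRT5, COL1A2, PTPRC, CD3E, CDH5 and HBB. The stromal marker COL1A1 had 14, 75 and 47 counts with DMSO and 17, 88 and 72 with SAL. VWF, an endothelial marker, had 4, 27 and 20 with DMSO and 5, 35 and 29 with SAL. The 20 markers together took 34 to 112 counts in a DMSO library and 32 to 133 in a SAL library. Since the libraries are bulk RNA, more cells with a transcript and more transcript per cell cannot be told apart.

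Of the 10 genes, 5 were called, against 20.8% of all genes tested. STEAP1, STEAP2, STEAP4 and FTL rose (4 of 10, where 11.5% of all genes were called higher), and TFRC fell (1 of 10, where 9.37% were called lower). In 7 of the 10 all 3 pairs moved the same way, as did 51.2% of all genes. The SAL and DMSO levels did not overlap for STEAP2, STEAP4 and SLC40A1, 3 of 10, against 7.51% of all genes, although SLC40A1 was not called. The median log2FC of the 10 was 0.26, and that of all genes was -0.0011. STEAP4 could enter these counts only by being high in SAL, so its call there adds nothing to the count. The genes were chosen with earlier results of these data known, so the shares set beside them are description only. Without the replicate block, 1 of the 10 was called, STEAP4.

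**Figure D1:**
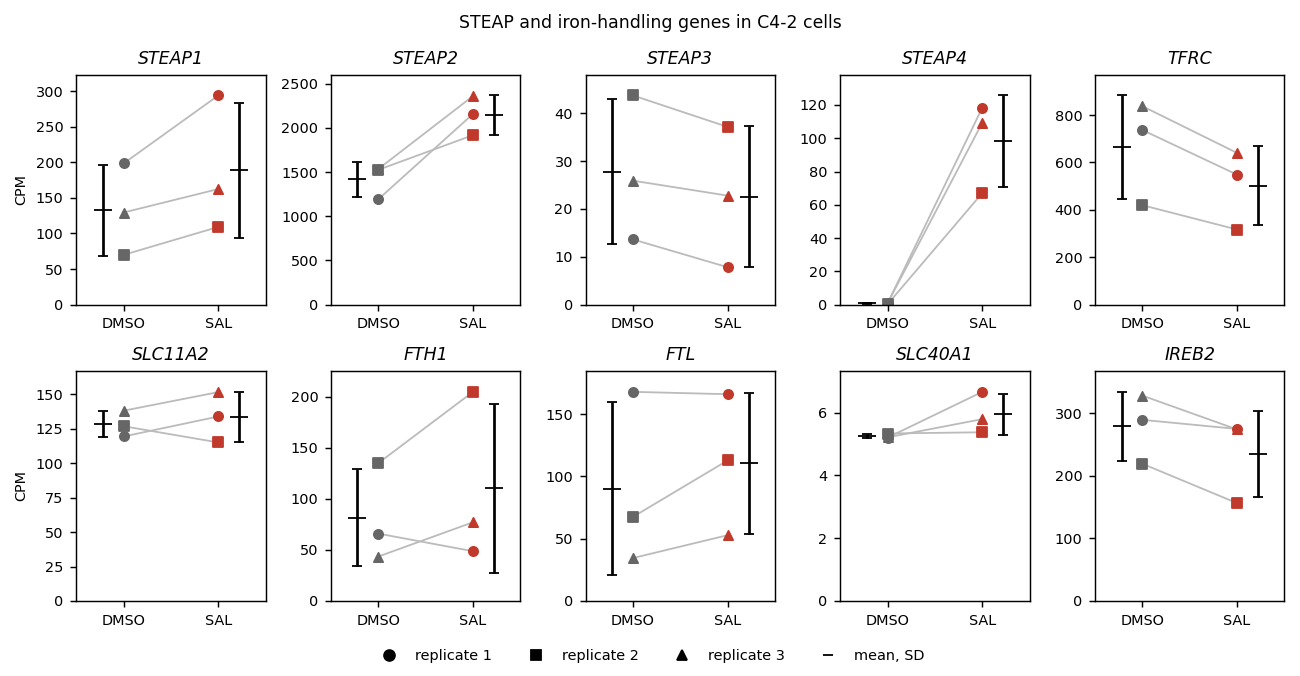
CPM of the 10 genes in each library (vertical axes from 0, 1 panel per gene), with DMSO in grey and SAL in red, lines joining libraries of one replicate number, and bars giving the mean and SD of 3 libraries. STEAP4 goes from under 1 CPM in every DMSO library to between 67.1 and 118 in SAL, whereas in the TFRC panel all 3 lines descend from different starting levels.

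STEAP4 spans 87900207 to 87936209 of chromosome 7 on the minus strand (GRCh37). Its counts were 7, 2 and 7 with DMSO against 925, 612 and 888 with SAL. As levels these were 0.867, 0.273 and 0.935 CPM in DMSO and 118, 67.1 and 109 CPM in SAL, so each SAL library was far above each DMSO library. The log2FC was 7.12 (SE 0.19, adjusted p = 2.64e-12). With so few DMSO counts the size of the change is uncertain, and the fitted value depends on the prior count. From counting error alone, the ratio of SAL to DMSO was 137 in pair 1 (95% exact Poisson interval 66.0 to 341), 245 in pair 2 (67.6 to 2031) and 117 in pair 3 (56.5 to 292). STEAP4 was called in every alternative fit that tested it, also without the block (adjusted p = 0.0233), with a log2FC between 6.94 and 7.31. Apart from the fit with no filter, these fits admitted STEAP4 only through its SAL libraries, so their calls add no independent support. A filter of at least 10 counts in every library removed it.

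STEAP2 was the most abundant of the STEAP transcripts and spans 89796904 to 89867451 of chromosome 7 on the plus strand. Read counts were 9613, 11151 and 11475 with DMSO against 16845, 17483 and 19152 with SAL. Its level went from 1416 ± 195 CPM to 2145 ± 222 CPM (SD, n = 3), with all 3 SAL libraries above all DMSO libraries. The log2FC was 0.60 (SE 0.11, adjusted p = 0.000942), made up of 0.86, 0.33 and 0.62 in pairs 1, 2 and 3. Without replicate 3 the change was 0.59 and was not called (adjusted p = 0.100).

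STEAP1, a surface antigen studied as a therapy target in prostate cancer, begins on the same strand at 89783770 and ends at 89794143, 2760 bp before STEAP2. Read counts were 1602, 511 and 969 with DMSO against 2297, 996 and 1319 with SAL. Levels differed 2.84-fold among the DMSO libraries, from 69.9 to 198 CPM, and the SAL libraries at 109 to 294 CPM overlapped them. Within pairs the gene rose each time, by 0.57, 0.64 and 0.33 on the log2 scale, and the fitted log2FC was 0.51 (SE 0.10, adjusted p = 0.00140). It was called without any one replicate number. STEAP1B, a paralog, had 3 to 21 counts per library and was too low to be tested.

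STEAP3, the endosomal ferrireductase best known from red cell precursors, lies on chromosome 2 from 119981407 to 120023228. It had 110, 320 and 194 counts with DMSO and 61, 339 and 185 with SAL. The log2FC was -0.36 (95% interval -0.66 to -0.05, adjusted p = 0.0988), with pair values of -0.78, -0.23 and -0.18, and the groups overlapped widely. This change was not called in the reported fit, and was past the threshold after correcting for GC and length over the 14009 genes with both values (-0.43, adjusted p = 0.0257). The same 14009 genes without the correction gave -0.36 (adjusted p = 0.0876). The antisense gene STEAP3-AS1, with 12 to 29 counts per library, covers 500 of its 4562 exon bases, and the counting did not use strand.

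Within the family, STEAP2 took 84.8% to 93.0% of the summed STEAP counts in the DMSO libraries and 83.7% to 90.0% in the SAL libraries. The share of STEAP4 went from at most 0.0618% in DMSO to between 3.15% and 4.60% in SAL. These shares are of read counts and were not corrected for transcript length.

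**Figure D2:**
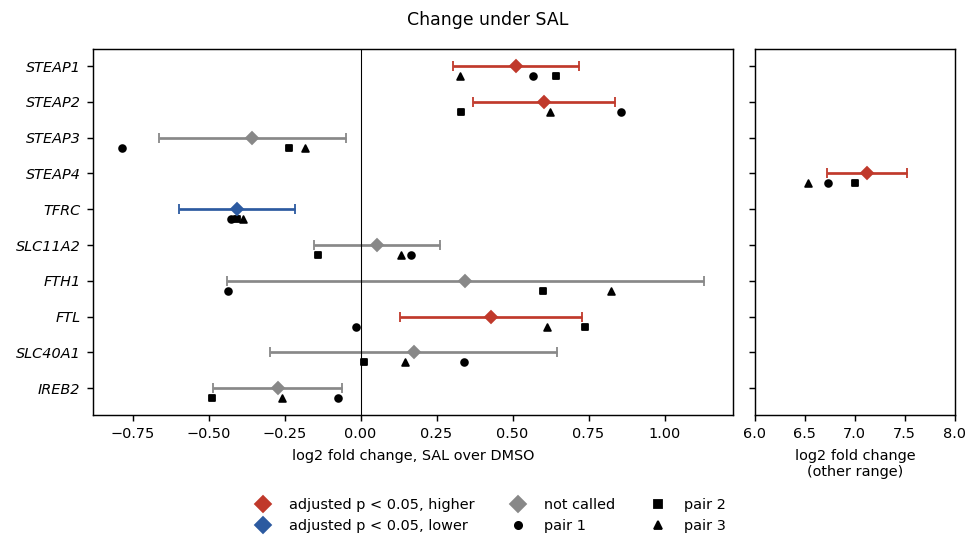
Log2 fold change of SAL over DMSO for the 10 genes (diamonds, bars for the 95% interval of the fit, coloured where called) and for each pair (small black symbols), with STEAP4 on a separate range to the right. The STEAP1 and STEAP2 pairs all lie above 0 and the TFRC pairs all lie close to -0.41, while the pairs of FTH1 fall on both sides of 0.

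The protein-coding genes next to the STEAP genes on chromosome 7 gave different values. Between STEAP4 and STEAP1, which are 1847560 bp apart, the protein-coding genes ZNF804B and C7orf62 (now TEX47) had no counts in any library. SRI, the gene of the calcium-binding protein sorcin on the far side of STEAP4, had 138 to 227 counts per library and a log2FC of -0.04 (adjusted p = 0.888). C7orf63, now CFAP69 and next after STEAP2, had 117, 30 and 90 counts in DMSO and 347, 72 and 272 in SAL, which rose with a log2FC of 1.43 (SE 0.16, adjusted p = 1.48e-05). STEAP2-AS1, an antisense gene named for STEAP2, had 8 to 38 counts per library and a log2FC of 0.33 (adjusted p = 0.524).

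The sequences just before the annotated starts of STEAP4 and STEAP2 are shown because these genes hold the largest response and the highest level of the family. They are the 250 bases upstream of a RefSeq transcript start (table of build GRCh38.p14, which has 14 entries for 9 of the 10 genes), and each matched GRCh37 exactly at 1 place, chr7:87936210-87936459 on the minus strand for STEAP4 and chr7:89840804-89841053 on the plus strand for STEAP2. The STEAP2 window lies within the annotated span of the gene, and the gene has another listed start further downstream. The steroid response element core TGTTCT, searched on both strands, occurs in 12.4% of 35116 such windows. Neither window printed here holds it, nor does any listed window of STEAP1, STEAP3 or TFRC, and among the 14 entries it occurs once, in a window of IREB2. The full palindrome, AGAACA and TGTTCT set 3 bases apart, occurs in 1 of the 35116 windows (0.00285%). It is in none of the 14 entries, which at that share says nothing particular about these genes. Only these windows of 250 bases were searched, so elements further from the starts were not looked for. The STEAP4 window has a GC content of 55.6% with 11 CpG dinucleotides, equal to the median of all windows, and the STEAP2 window has 69.6% with 21.
STEAP4: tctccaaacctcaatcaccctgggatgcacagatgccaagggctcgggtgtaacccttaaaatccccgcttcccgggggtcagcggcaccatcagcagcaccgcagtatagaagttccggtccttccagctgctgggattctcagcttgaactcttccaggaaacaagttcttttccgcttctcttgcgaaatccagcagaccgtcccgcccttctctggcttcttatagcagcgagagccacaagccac
STEAP2: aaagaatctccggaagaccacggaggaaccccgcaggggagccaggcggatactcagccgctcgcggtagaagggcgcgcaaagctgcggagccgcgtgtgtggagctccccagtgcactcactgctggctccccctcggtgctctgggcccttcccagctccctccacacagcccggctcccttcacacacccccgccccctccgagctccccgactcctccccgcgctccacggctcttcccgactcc

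Among the genes of iron uptake, TFRC spans 195739382 to 195809024 of chromosome 3 on the minus strand. Read counts were 5946, 3067 and 6266 with DMSO and 4281, 2888 and 5194 with SAL. Its levels were 737, 419 and 837 CPM in DMSO and 548, 317 and 640 CPM in SAL, so the groups overlapped while each pair fell. The falls of -0.43, -0.41 and -0.39 in the 3 pairs were nearly equal, and the fitted log2FC was -0.41 (SE 0.09, adjusted p = 0.00406). Without replicate 3 the value was -0.42 and was not called (adjusted p = 0.188). SLC11A2, on chromosome 12 from 51373184 to 51422349, had 964, 928 and 1034 counts with DMSO and 1046, 1050 and 1231 with SAL, overlapping as CPM (119 to 138 against 115 to 152). Its log2FC was 0.05, with a 95% interval of -0.15 to 0.26 (adjusted p = 0.756), and pair 2 went the other way from pairs 1 and 3.

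The response of both ferritin genes varied between replicate numbers. FTL, on chromosome 19 from 49468566 to 49470136, had 1356, 494 and 258 counts with DMSO and 1297, 1030 and 429 with SAL. Its level ranged 4.87-fold among the DMSO libraries, from 34.5 to 168 CPM. The log2FC was 0.43 (SE 0.14, adjusted p = 0.0455), built on -0.02, 0.74 and 0.61 in the 3 pairs. With DESeq2 the value stayed at 0.43 and missed the threshold (adjusted p = 0.0616). It was 0.69 without replicate 1 (adjusted p = 1.08e-07), and the call was lost when replicate 2 was left out (0.24, adjusted p = 0.324) and when replicate 3 was (0.35, adjusted p = 0.350). FTH1, on chromosome 11 from 61727190 to 61735106, had 532, 986 and 325 counts with DMSO and 380, 1866 and 625 with SAL. The pair values of -0.44, 0.60 and 0.82 went both ways, and the log2FC of 0.34 was not called (95% interval -0.44 to 1.13, adjusted p = 0.491). It was 0.70 without replicate 1 (adjusted p = 5.11e-09), 0.18 without replicate 2 (adjusted p = 0.824) and 0.10 without replicate 3 (adjusted p = 0.872).

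Both ferritin values carry a limit of the counting. Reads that matched several places were left out, and ferritin has many processed pseudogenes. The 25 FTH1 pseudogene rows held 152 to 402 counts per library, 21.5% to 70.2% of the FTH1 count, with FTH1P8, FTH1P7 and FTH1P20 highest, and the 16 FTL pseudogene rows held 25.9% to 48.8% of the FTL count, with FTLP3 highest. With these rows added, the log2FC was 0.23 for FTH1 (adjusted p = 0.400) and 0.37 for FTL (adjusted p = 0.0385). In GENCODE v44, which is newer than the annotation used for counting and may differ from it here, exons of BEST1 on the other strand cover 63.2% of the FTH1 exon bases, and reads in such an overlap cannot be told apart without strand. BEST1 itself had 55, 144 and 88 counts with DMSO and 20, 91 and 47 with SAL, and fell with a log2FC of -1.09 (SE 0.19, adjusted p = 0.000812). The study counted in intersection-nonempty mode, in which a read wholly inside an overlap of its annotation goes to neither gene. How far such reads change the FTH1 values was not tested.

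SLC40A1, the exporter gene on chromosome 2 from 190425316 to 190448484, was low throughout, with 42, 39 and 39 counts with DMSO and 52, 49 and 47 with SAL. Its level was 5.25 ± 0.07 CPM in DMSO and 5.94 ± 0.66 CPM in SAL (SD, n = 3), for which the log2FC was 0.17 with a 95% interval of -0.30 to 0.65 (adjusted p = 0.638). IREB2, on chromosome 15 from 78729773 to 78793795, had 2338, 1605 and 2458 counts with DMSO and 2148, 1427 and 2226 with SAL. SAL was lower in all 3 pairs (-0.07, -0.49 and -0.26) while the groups overlapped, and the log2FC of -0.27 was not called (95% interval -0.48 to -0.06, adjusted p = 0.0646). It was called without replicate 1 (-0.37, adjusted p = 0.00194), without the filter on low counts (adjusted p = 0.0467) and after correcting for GC and length over 14009 genes (-0.25, adjusted p = 0.0198), where the fit without the correction gave -0.27 (adjusted p = 0.0575).

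Set beside the IREs, the genes with an element in the 5′ UTR had log2FC values of 0.34 (FTH1), 0.43 (FTL) and 0.17 (SLC40A1), of which only FTL was called, and TFRC, with elements in the 3′ UTR, had -0.41. SLC11A2 and IREB2, with no match to the motif searched, had 0.05 and -0.27, and neither was called. Both may still hold an element of another form or in another transcript, so they are not a group without IREs. RNA counts do not measure translation, on which the 5′ elements act.

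Levels were compared between genes per kb of canonical transcript. In DMSO, STEAP2 had the highest mean, 203 CPM per kb (171 to 220 over the 3 libraries). Its range lay above that of TFRC, which was next at 133 ± 43.5 (SD, n = 3). FTL in the DMSO library of replicate 1, at 193, lay within the STEAP2 range and above STEAP2 in that library (171). TFRC, STEAP1 (109 ± 52.8), FTL (103 ± 79.8), FTH1 (67.7 ± 39.6) and IREB2 (44.1 ± 8.73) followed in this order, each overlapping the next. SLC11A2 (31.0 ± 2.28), STEAP3 (6.52 ± 3.56), SLC40A1 (1.58 ± 0.02) and STEAP4 (0.0693 ± 0.0364) were each apart from their neighbours. In SAL, STEAP2 stood at 307 ± 31.7 CPM per kb, here apart from all the rest, and STEAP1 was second at 155 ± 78.1. STEAP4 moved from the last place to the eighth, at 9.84 ± 2.74 CPM per kb, where its range overlapped that of STEAP3 (5.30 ± 3.45). The order depends on the length used, since over all annotated exon bases TFRC was at 38.2 CPM per kb in DMSO, below FTH1 at 40.6.

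**Figure D3:**
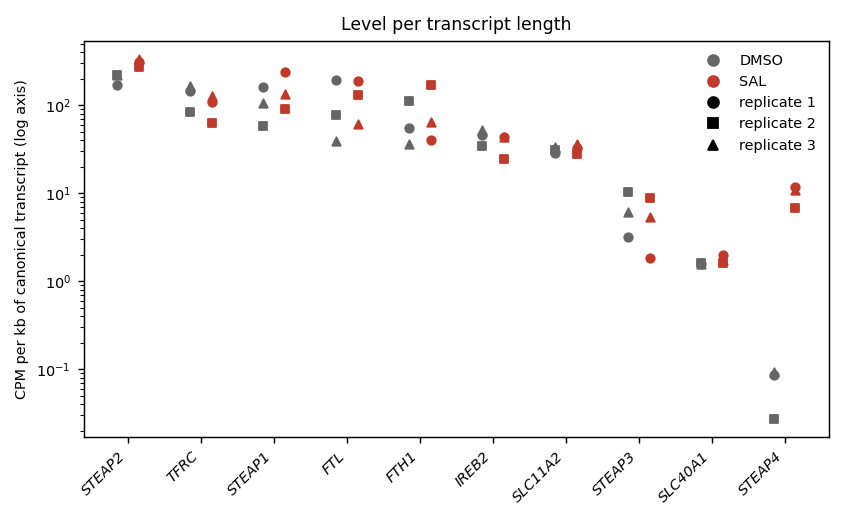
Level per kb of canonical transcript (log axis) of the 10 genes in each library, ordered by the DMSO mean, with DMSO in grey, SAL in red and a symbol for each replicate number. STEAP2 has the highest mean in both groups, and STEAP4 moves from 0.0693 to 9.84 CPM per kb on average.

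The wider iron and heme genes, a list of 79 written by role, are given as background to the 10. Of the 67 tested, 4 rose and 4 fell, 11.9% in all where 20.8% of all genes were called, and their median log2FC was -0.01. All 4 that rose were among the 19 tested genes of heme synthesis, transport and breakdown, 4 of 19 where 11.5% of all genes were called higher. With 0 called lower, 21.1% of this role was called in either direction, close to the 20.8% of all genes. The median log2FC of the role was 0.0067, and no test of this group was made. FECH, which inserts iron into protoporphyrin to form heme, had 138, 203 and 168 CPM in DMSO and 313, 369 and 360 in SAL, groups that did not overlap. Its log2FC was 1.05 (SE 0.10, adjusted p = 1.45e-06). TMEM14C, a carrier of porphyrin precursors in mitochondria, rose by 0.60 (adjusted p = 0.000906). HMOX1, the heme oxygenase that releases iron from heme, rose by 0.94 (adjusted p = 0.0101), with 0.17, 1.21 and 1.38 in the 3 pairs, and BLVRA, which reduces the biliverdin so formed, rose by 0.52 (adjusted p = 0.0109). HMOX1 was not called without replicate 2 or 3 (0.73 and 0.75), nor was BLVRA (0.44 and 0.54), which also missed the threshold with DESeq2 (0.51, adjusted p = 0.0642). ALAS1, the first enzyme of heme synthesis outside red cells, had a log2FC of 0.0022 (adjusted p = 0.992).

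The genes that fell came from 3 roles. SLC39A8, a transporter of zinc, manganese and iron, went from 360 ± 57.5 to 271 ± 50.5 CPM (SD, n = 3) and its log2FC was -0.42 (adjusted p = 0.00343). PCBP2, a poly(C)-binding protein that also carries iron to ferritin, fell by 0.41 on the log2 scale (adjusted p = 0.00676). Neither was called without replicate 3 (adjusted p = 0.207 and adjusted p = 0.171). HSPA9, the mitochondrial chaperone of iron-sulfur cluster assembly, and FDX1, a mitochondrial ferredoxin, each gave a log2FC of -0.29 (adjusted p = 0.0354 for HSPA9 and 0.0495 for FDX1), and both missed the threshold with DESeq2 at nearly the same values (-0.29 and -0.30). HSPA9 was also not called without replicate 1 (-0.23) or replicate 3 (-0.30), nor FDX1 without replicate 2 (-0.24) or replicate 3 (-0.34), and FDX1 lost its call with rRNA genes kept, with no filter and without robust dispersions. Of the 6 listed partners of iron regulation 0 were called by edgeR, where 20.8% of all genes were, and SKP1 and CUL1 had an unadjusted p under 0.05 (0.0467 and 0.0366). Not called were also ACO1, the other iron regulatory protein (0.15, adjusted p = 0.337), and FBXL5, which marks IREB2 protein for degradation (0.06, adjusted p = 0.698). The ferritinophagy receptor NCOA4 had a log2FC of 0.08 (adjusted p = 0.643). CYBRD1, another ferric reductase, had at most 3 counts per library, and transferrin (TF) and hepcidin (HAMP) had at most 1.

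**Figure D4:**
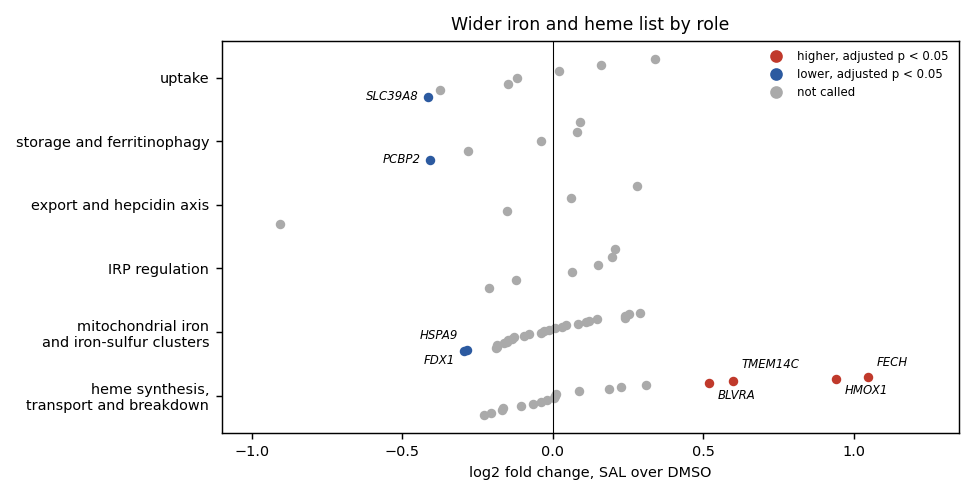
Log2 fold change of SAL over DMSO for the 67 tested genes of the wider iron and heme list (horizontal axis), 1 row of points per role, red for genes called higher, blue for genes called lower and grey for the rest. The 4 red points lie in the heme row, at 0.52 to 1.05, and the outlying grey point is CP, the ferroxidase ceruloplasmin, at -0.91 (adjusted p = 0.151).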

How the data were processed

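Total RNA of 6 cultures was sequenced with a stranded, paired-end kit. Per the labels and the methods of the study, the authors trimmed the reads, mapped read 1 to hg19 with TopHat2 2.1.0 and counted reads per gene with HTSeq 0.11.2 and gencode v19 without using strand. The deposited values are these raw counts, not normalized. Rows that name no gene (36.0% to 55.1% of the tallies per library) and 523 rRNA symbols (11.9% to 27.8% of gene counts) were left out. Counts were filtered with filterByExpr, scaled by TMM and tested with edgeR 4.0.16 in R 4.3.3, SAL against DMSO with the replicate number as a block, as the study used a paired test. Libraries of the same number deviated together, with correlations of 0.89, 0.86 and 0.74 over genes. Each pair's value subtracts the DMSO from the SAL library on the log2 CPM scale, a prior count being added. The SE was taken as the size of the log2FC divided by the square root of F. With the block, p-values measure the spread of the SAL-DMSO difference over these pairs of cultures, not that between replicate numbers. In counts simulated for this comparison, of which 16215 genes passed the filter, 78.0% of 109 genes changed by 1 on the log2 scale and 86.8% of 91 changed by 2 were recovered, and 5.20% of calls were false. The simulation used the dispersion trend rather than each gene's own dispersion. Changes smaller than 1 were not simulated, so these shares do not cover the smaller changes called here. Positions, lengths, exon overlaps and GC content are from GRCh37 with GENCODE v44, newer than the annotation used for counting. Poisson intervals cover counting error only. The genes and lists were chosen with earlier results of these data known. Named were all 10 genes, wider-list genes called (at most 8 per direction), the pseudogenes and overlapping genes, the chromosome 7 neighbours and, for 4 genes, the 3 most similar profiles. A few list genes that were not called were named after their values were seen. ERFE of the list and the marker PECAM1 were not analysed here. Some cell type markers are not reported here. Alternatives were DESeq2 1.42.0, other scaling, filters, thresholds and gene sets, no block, a correction for GC content and length, added pseudogene counts and each replicate number left out.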

Additional observations from a re-analysis of the deposited data

How the results depend on the processing

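Without the replicate block, although libraries of one number deviate together, 18 genes were called higher and 3 lower over the whole table, with 1 of the 10 STEAP and iron genes higher and 0 lower, and 0 higher and 0 lower in the wider iron list (edgeR). At an unadjusted p under 0.05, that fit had 1 and 0 of the 10 and 1 and 0 of the wider list. Leaving out each replicate number gave 750 to 2443 genes higher and 483 to 1955 lower, 2 to 5 of the 10 higher and 0 to 2 lower, and 2 to 8 of the wider list higher and 0 to 5 lower. The fewest calls came without replicate 3, except that 2 wider-list genes were called higher without replicate 2 as well. With DESeq2, 950 genes and 2 of the wider list were lower. A minimum of 10 counts in every library left 2 of the 10 higher, since it removed STEAP4 and FTL missed the threshold (adjusted p = 0.0504). No filter gave 2 of the 10 lower. Correcting for GC and length, block included, on the 14009 genes with both values, gave 3 of the 10 lower and 7 of the wider list higher. The same 14009 genes without the correction, a fit chosen after seeing the data, gave 1 and 4. Requiring an absolute log2FC of 1 or more left 1 of the 10 higher and 0 lower. SLC11A2 ranged from -0.0015 to 0.13 when a replicate number was left out, and changed sign without replicate 1 (adjusted p = 0.994). Where no construction of the setting shows it, the cause was not tested. Among refits of the 10 single genes, 115 kept their direction and side of the threshold, 10 lost a call, 5 gained one and 1 changed sign. The refits of wider-list genes and KLK3 were chosen after seeing the data, and 92 kept their call and 25 lost it.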

Other observations

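HEPH, a ferroxidase that works with the exporter ferroportin, was too low to be tested, with 0, 2 and 2 counts with DMSO and 4, 10 and 7 with SAL. In the fit with no filter, the 4 wider-list genes called higher were FECH, TMEM14C, HMOX1 and BLVRA, so HEPH was not called higher there.

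The genes whose log2 CPM followed those of 4 genes most closely over the 6 libraries, out of 10309 genes with a mean of at least 10 CPM, are given as a description. For STEAP2 these were GMDS-AS1, IYD (an iodotyrosine deiodinase) and TMEM87B, with Pearson r of 0.996, 0.991 and 0.987. For STEAP1 they were ARPC5, MAP3K13 and AZI2 (0.999, 0.997 and 0.995), for TFRC SUZ12, FAM107B and LHX4 (0.994, 0.993 and 0.992), and for FTH1 PFN1, AUP1 and CLDN7 (0.996, 0.994 and 0.992). The libraries share replicate numbers, so these correlations hold differences between replicate numbers as well as between treatments.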
